A study of Caenorhabditis elegans with 4 samples.

Results

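The regions described here are the NURF-1 peaks on the X chromosome of Caenorhabditis elegans, taken as every peak whose chromosome is X in the authors' combined peak list. They number 966 of 10483 peaks in that list (9.21%). The X chromosome also carries 779 of the 9065 peaks called in ChIP replicate 1 and 722 of the 7519 called in ChIP replicate 2. All libraries come from wild-type worms of strain N2 at the L3 larval stage, kept at 20 °C as a mixed population of males and hermaphrodites, and chromatin was crosslinked with EGS and formaldehyde. The 2 ChIP libraries used a polyclonal rabbit antibody to NURF-1, purified by affinity, and the 2 input libraries have no antibody step and no values used here. The libraries are whole larvae, so the peaks average over all tissues, sexes and both the somatic cells and the germline.

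NURF-1 is the largest subunit of the nucleosome-remodelling complex NURF, in which the ATPase ISW-1 slides nucleosomes along DNA. Its mammalian counterpart BPTF binds histone H3 methylated at lysine 4, a mark of active promoters, through a PHD finger, and acetylated histones through a bromodomain. The X chromosome of C. elegans is regulated apart from the autosomes. In hermaphrodites, which have a pair of X chromosomes, a condensin-containing dosage compensation complex binds both of them and lowers their transcription, whereas males have a single X without the complex. In the germline most X-linked genes are kept silent. Autosomes have gene-rich centres flanked by repeat-rich arms, a contrast that is weaker on X.

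Each peak has a first and last base on the WS220 build (numbered from 1) and a score whose scale the authors did not state. Scores are compared only among peaks of 1 list, except where the replicates are set side by side. Sequencing depth is unknown, since the lists hold no reads. The single combined peak outside the 6 nuclear chromosomes enters no comparison. X was compared with the 5 autosomes, with the chromosome as the unit, by moving the X label over the 6 nuclear chromosomes (exact permutation, two-sided by absolute difference). The smallest p this allows is 0.167, so no comparison could pass 0.05. It says only whether X lay farther from the other 5 than any of them did from the rest. The 8 main comparisons are adjusted as 1 family by the Benjamini-Hochberg method. The labels do not say that the 2 ChIP libraries came from separate cultures, so differences between them may be technical. Replicate 2 holds runs of 5 or more neighbouring peaks, each within 2 kb of the next, that have no partner in replicate 1. X has 4 of these runs, with 44 of its 722 replicate 2 peaks (6.09%). Every autosome has some too, from 1 run of 6 peaks on II to 7 runs of 47 peaks on V (0.531% to 4.01% of their peaks). For replicate 2, the density, the median gap and the overlap shares are given with the runs and with those of all 6 chromosomes removed. Counts along X are given with and without the runs on X. Other replicate 2 values include the runs unless stated.

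X was the chromosome with the fewest peaks for its length. The combined list placed 54.5 peaks per Mb on X (95% exact Poisson interval 51.1 to 58.1, counting error only), against 76.7 on V, 102.7 on II, 109.8 on IV, 149.6 on I and 157.2 on III. Peaks covered 2.77% of X and between 4.2% (V) and 8.94% (III) of the autosomes. The X density was 0.457 of the autosomal mean of 119.2 ± 33.7 peaks per Mb (SD, n = 5 autosomes, exact permutation p = 0.167, adjusted p = 0.333). The same ratio was 0.423 in replicate 1 and 0.480 in replicate 2, or 0.459 in replicate 2 without the runs. When peaks at most 1 kb apart were counted as 1 cluster, X still held 42.4 clusters per Mb, 0.523 of the autosomal mean.

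**Figure D1:**
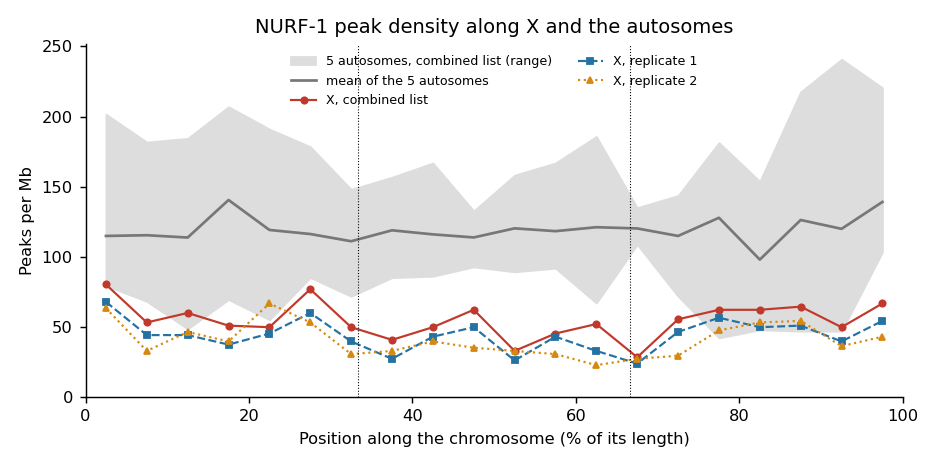
Peaks per Mb (vertical axis) in 20 equal segments along each chromosome (horizontal axis, percent of its length, dotted lines at the borders of its left, middle and right parts). Red circles, blue squares and orange triangles are X in the combined list, replicate 1 and replicate 2, the grey line is the mean of the 5 autosomes in the combined list and the grey area their range. X in the combined list ran between 28.2 and 80.1 peaks per Mb and stayed below the autosomal mean in every segment.

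Along X, peaks were thinnest in the middle. X was divided into 3 equal parts of 5.91 Mb. The left part held 359 peaks, or 60.8 per Mb (95% exact Poisson interval 54.7 to 67.4). The middle held 277, or 46.9 per Mb (41.5 to 52.8), and the right 330, or 55.9 per Mb (50.0 to 62.2). The intervals of the left and middle parts do not overlap, while that of the right part overlaps both. Replicate 1 gave the same order, with 48.9, 36.9 and 46.1 peaks per Mb from left to right. So did replicate 2, with 48.1, 33.2 and 41.0, and without its runs 246, 196 and 236 peaks remained in the 3 parts.

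The middle was the thinnest part on none of the autosomes. It was the densest of the 3 parts on V and lay between the other 2 on I, II, III and IV. On X the log2 ratio of middle to outer density was -0.31, the lowest of the 6 chromosomes, against an autosomal mean of -0.01 ± 0.21 (SD, n = 5, exact permutation p = 0.333, adjusted p = 0.533). Chromosome V lay at least as far from the others, in the opposite direction. In the replicate lists the X ratio was -0.36 and -0.42.

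The higher median score that each autosome had in its middle was not seen on X in the combined list. In the combined list the median score of peaks in the middle part exceeded that in the outer parts by 4.47 (V) to 10.2 (I) on the autosomes. On X it was lower in the middle by 2.22, with medians of 12.6 in the middle and 14.8 in the outer parts. X had the lowest difference of the 6 chromosomes (autosomal mean 7.13 ± 2.33, SD, n = 5, exact permutation p = 0.167, a comparison added after the data were seen). The sign was not the same in the replicate lists. There the middle of X scored higher by 2.22 in replicate 1 and by 1.34 in replicate 2 with its runs, against autosomal means of 10.5 ± 5.63 and 4.70 ± 1.99. All 4 runs of replicate 2 on X lie in its outer parts, so the middle median of 12.5 stands without them. The median of all X peaks without the runs was 12.9, so the middle was then not the higher part. In replicate 1 chromosome V had a smaller difference, 1.89, than X. Strong peaks took a larger share of the X peaks in the middle, as they did on every autosome, a difference that was not tested. The 75th percentile of the combined score was 72.9 in the middle of X, against 58.9 in the left and 57.1 in the right part. Scores of 100 or more were reached by 39 X peaks in the middle (14.1%), 43 in the left (12%) and 33 in the right part (10%). On the autosomes such peaks made up 20.3% (V) to 26.8% (II) in the middle. In their outer parts the share was 11.4% (right part of V) to 16.8% (right part of I).

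**Figure D2:**
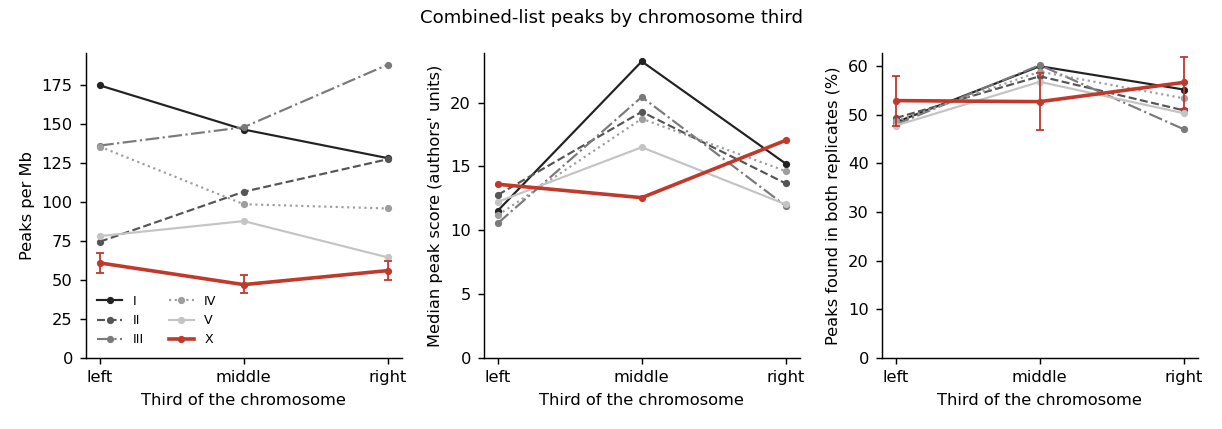
Density (peaks per Mb), median score (authors' units) and percent of peaks found in both replicates, by left, middle and right part of each chromosome, for the combined list. X is red, with 95% Poisson or Wilson intervals, and the autosomes are grey. The autosomal medians rise to a peak in the middle (16.5 on V to 23.2 on I), while X has its lowest median there (12.6).

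In steps of 1 Mb, the combined list held between 34 and 78 X peaks (17 full bins, median 56). The densest bin was the first, from 0 to 1 Mb, with 78 combined, 66 replicate 1 and 62 replicate 2 peaks. The bin from 4 to 5 Mb followed with 77 combined and 67 replicate 1 peaks. Replicate 2 had 85 peaks there, its highest count on X, of which 59 remained without its runs. The sparsest bin, from 3 to 4 Mb, lay beside it with 34, 24 and 30 peaks. The bin from 12 to 13 Mb was next, with 36, 32 and 20. Every full bin had at least 1 peak with a score of 100 or more, and the bin from 4 to 5 Mb had the most, 13.

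X peaks stood farther apart than autosomal peaks, by more at the median than in the mean. The median gap between neighbouring combined peaks, counted from the last base of one to the first base of the next, was 8197 bp on X, against 2208 bp (III) to 3600 bp (V) on the autosomes. It was 2.95 times the autosomal mean of 2779.7 ± 539.6 bp (SD, n = 5, exact permutation p = 0.167, adjusted p = 0.333). The mean gap of 17846 bp was 2.12 times the autosomal mean. Fewer peaks per Mb leave longer gaps, so gap lengths are not independent of the density. Replicate 1 had a median X gap of 10792 bp and replicate 2 one of 11298 bp, or 3.33 and 2.75 times their autosomal means. Without the runs the replicate 2 median was 13191 bp on X, 3.03 times the autosomal mean.

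Close neighbours were rarer on X. Of 965 X gaps, 215 were 1 kb or shorter (22.3%, 95% Wilson interval 19.8 to 25), against 27.3% (V) to 34.7% (III) of autosomal gaps. Gaps of up to 5 kb made up 41.3% on X and 56.2% (V) to 69.0% (III) elsewhere. X gaps were also less uneven relative to their mean. Their coefficient of variation was 1.45, below the 1.58 (I) to 1.76 (II) of the autosomes (exact permutation p = 0.167, adjusted p = 0.333), and it was the lowest in replicate 1 (1.38) and replicate 2 (1.37) too. With peaks at most 1 kb apart merged it was 1.2, still 0.12 under the autosomal mean, but X was then not the chromosome farthest from the others alone (exact permutation p = 0.333).

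**Figure D3:**
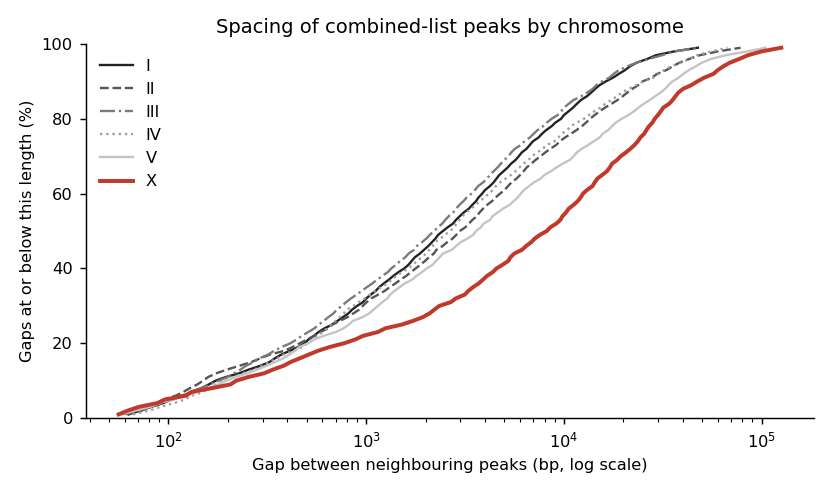
Cumulative percent of gaps (vertical axis) at or below a given length in bp (horizontal axis, log scale) for combined-list peaks, 1 line per chromosome from the 1st to the 99th percentile. The red X line lies below the autosomal lines at 1 kb (22.3%) and 5 kb (41.3%) and crosses 50% at 8197 bp where chromosome V does so at 3600 bp.

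Peaks with no other peak within 10 kb on either side were more common on X than on the autosomes and scored higher than the other X peaks. They numbered 210 (21.7% of X peaks), against 4.80% (III) to 12.3% (V) of autosomal peaks. Their median score was 30.9 and that of the other X peaks 12.4. On the autosomes isolated peaks had medians of 13.8 (III) to 19.3 (I) and the other peaks 12.9 (III) to 14.6 (I). On each autosome the isolated peaks had the higher median in the combined list. This did not hold on I in replicate 1 (15.59 against 16.45) or on III in replicate 2 (10.02 against 10.55). In replicate 1 the X median for isolated peaks was 40.2, above the 15.6 to 23.0 of the autosomes. In replicate 2 it was 19.0, inside the autosomal range of 10.0 to 32.7. Of all X peaks, 37.9% had a neighbour within 1 kb, against 45.1% (V) to 54.5% (III) on the autosomes. Of the X peaks with a score of 100 or more it was 23 (20.0%), against 33.6% (II) to 44.0% (III), so strong peaks had fewer close neighbours than all peaks on each chromosome. Among such strong peaks the share was 14.8% in replicate 1, against 24.5% to 41.3%, and 1 of 14 peaks in replicate 2, against 30.0% to 43.1%.

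A large part of X carried no peak over long distances. Stretches of at least 50 kb without a combined peak numbered 88 and took up 41.4% of X, against 7.74% (I) to 33.0% (V) of the autosomes (autosomal mean 18.9 ± 10.4%, SD, n = 5, exact permutation p = 0.167, adjusted p = 0.333). They took up 49.7% of X in replicate 1 and 53.0% in replicate 2. Inside 72 of the 88 stretches lay no whole peak of either replicate. Their share rose from 35.8% in the left part to 42.0% in the middle and 46.3% in the right part. The right part thus had more of its length in such stretches than the middle, although its peaks were denser. Of the 20 stretches of at least 100 kb, 9 were in the middle, 6 in the left and 5 in the right part. The autosomes had between 0 (III) and 18 (V) stretches of that length.

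The longest stretch ran from 12021601 to 12293629 (272 kb), in the right part, with a peak of each replicate reaching over its edge. The next, 176 kb from 12671913 to 12848170, is in the same region, and a peak of replicate 1 alone reaches over its edge. The third in length, 142 kb from 3803667 to 3945620, is free of peaks in all 3 lists and falls in the sparsest bin. The remaining 2 of the 5 longest are neighbours in the middle part, 139 kb from 9466034 to 9605347 and 136 kb from 9637892 to 9774127. The last of these holds 1 replicate 2 peak. The 2 longest both lie within the bin from 12 to 13 Mb.

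In the combined list typical X peaks had scores in the autosomal range, and the highest scores were rarer. The median X score was 14.4, within the autosomal range of 12.9 (III) to 14.7 (I), and 0.61 above the autosomal mean of 13.8 ± 0.65 (SD, n = 5, exact permutation p = 0.5, adjusted p = 0.571). At the 75th percentile X, with 61.4, was also within the range of 50.4 (IV) to 71.2 (II). At the 90th it had 108 and lay below all autosomes, which had 121 (IV) to 131 (II). Scores of 50 or more were reached by 28.6% of X peaks and by 25.2% (IV) to 29.3% (II) of autosomal peaks. Scores of 100 or more were reached by 115 X peaks (11.9%, 95% Wilson interval 10.0 to 14.1), against 16.2% of all nuclear combined peaks and 15.0% (IV) to 19.0% (II) per autosome. At 150 or more there were 19 on X (1.97%), against 4.57% (III) to 5.99% (II). Per Mb of chromosome that is 1.07 on X, against 4.01 (V) to 8.09 (I).

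The replicates differed in where the X scores began to fall behind. In replicate 1 the X median of 17.8 was above the 14.1 to 16.2 of the autosomes. There 32.5% of X peaks scored 50 or more, above all autosomes (26.7% to 31.5%), and 13.9% scored 100 or more, below all of them (16.6% to 21.2%). In replicate 2 the X median of 11.5 was within the 10.4 to 11.9 of the autosomes. Without the runs of every chromosome it was 12.9, above the 10.5 to 12.3 of the autosomes. With the runs, the replicate 2 shares of X peaks were 14.4% at 50 or more, against 19.5% to 24.7%, and 1.94% at 100 or more, against 8.53% to 9.73%. The lower share at a score of 100 was thus found in each list, and that at 50 in replicate 2 alone. Of the 100 highest-scoring peaks of the genome, X held 3 in the combined list and 1 in each replicate. For comparison, X made up 9.22% of nuclear combined peaks, 8.59% of replicate 1 peaks and 9.60% of nuclear replicate 2 peaks. Taken in that order, the lists had 19, 16 and 7 X peaks among their top 500. Among their top 1000 they had 51, 47 and 39. Scores of the 2 replicate lists may be on different scales, since their depths are unknown.

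**Figure D4:**
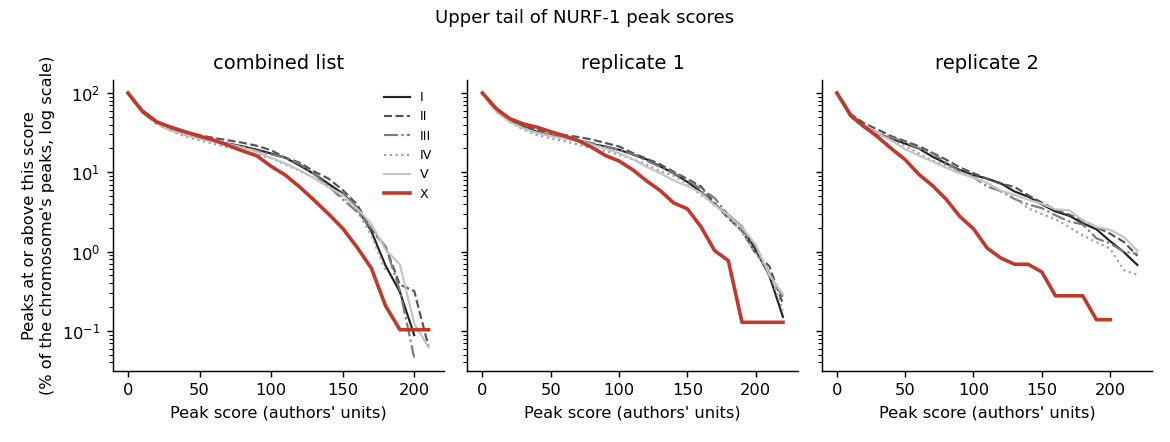
Percent of a chromosome's peaks (vertical axis, log scale) at or above a given score (horizontal axis, authors' units) in the combined list, replicate 1 and replicate 2. The red X line is among or above the grey autosomal lines at a score of 50 in the combined list (28.6%) and replicate 1 (32.5%) and below them at 100. In replicate 2 it is below them at both scores, with 14.4% and 1.94%.

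High-scoring X peaks were narrower than autosomal peaks in the same class of score. The median width was 383 bp on X and 368 bp (IV) to 414 bp (II) on the autosomes, a difference of -6.00 bp from the autosomal mean that was smaller than the SD of 16.6 bp over autosomes (exact permutation p = 0.667, adjusted p = 0.667). The combined list was ranked by score into 10 equal classes. In the lowest class the median widths were 188 bp on X and 186 bp on the autosomes. They were 190 and 195 bp in class 2, 314 and 321 bp in class 5, and 388 and 391 bp in class 6. In class 4 X peaks were the wider, with 287 against 254 bp. From the seventh class upwards X peaks were narrower, with 471 against 525 bp there, 656 against 720 bp in the eighth and 794 against 907 bp in the ninth. In the highest class the medians were 852 bp (56 X peaks) and 1103 bp (993 autosomal peaks). Scores there were not alike. In the top 10% by score the median score was 140 on X, against an autosomal mean of 150. The class medians were also averaged with the score make-up of X, a measure other than the overall median. This gave 435 bp on X and an autosomal mean of 478 bp, so X was lower by 43.0 bp (exact permutation p = 0.167).

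X peaks were found again in both replicates about as often as autosomal peaks. Of the 966, 523 (54.1%, 95% Wilson interval 51.0 to 57.3) overlapped a peak of each replicate by at least 1 bp, against 52.9% of all nuclear combined peaks and 51.5% (III) to 54.1% (I) per autosome. The difference from the autosomal mean was 1.42 percentage points (exact permutation p = 0.5, adjusted p = 0.571). These shared X peaks had a median score of 55.6, within the autosomal range of 44.1 to 62.8. Their median width was 646 bp, under the 700 bp (IV) to 802 bp (II) of the autosomes.

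The remaining X peaks were divided differently. Found in replicate 1 alone were 210 X peaks (21.7%, 95% Wilson interval 19.3 to 24.4), fewer than the 27.2% (IV) to 29.5% (III) of the autosomes. Found in replicate 2 alone were 83 (8.59%, 6.98 to 10.5), against 4.92% (I) to 7.67% (V). Found in neither were 150 (15.5%, 13.4 to 17.9), against 12.8% of all nuclear combined peaks and 12% (V) to 13% (II) per autosome. After weighting the autosomes to the X score make-up the X shares still lay outside the autosomal ranges, which became 25.5% to 28.4%, 5.11% to 7.5% and 13% to 14% (exact permutation p = 0.167 for each, chosen after the data were seen). Peaks found in neither replicate were weak, with a median score of 3.84 on X and 4.2 to 4.52 on the autosomes. By position, they made up 13.6% of peaks in the left part of X, 19.1% in the middle and 14.5% in the right part, with overlapping intervals.

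Seen from the replicate lists, the direction of the X difference depended on the list. Of the 779 replicate 1 peaks on X, 538 (69.1%, 95% Wilson interval 65.7 to 72.2) overlapped a replicate 2 peak, against 63.8% of all replicate 1 peaks and 61.9% (III) to 64.1% (II) per autosome. Of the 722 replicate 2 peaks on X, 556 (77.0%, 73.8 to 79.9) overlapped a replicate 1 peak, against 83.3% of all replicate 2 peaks and 79.5% (V) to 86.4% (I) per autosome. With the runs removed from every chromosome the latter share was 82.0% on X and 82.9% (V) to 87.5% (I) on the autosomes. The combined list contained 97.9% of the replicate 1 X peaks and 88.2% of the replicate 2 X peaks, the latter under the 91.2% (V) to 94.5% (IV) of the autosomes. With the runs removed from every chromosome it was 92.8% on X and 93.1% (V) to 96.0% (III) on the autosomes.

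The 4 runs of replicate 2 peaks had low scores and few partners in the combined list. The longest reaches from 4034055 to 4055897 with 26 peaks and a median score of 4.39, and 4 of its peaks are in the combined list. A run of 7 peaks from 110295 to 114257 has none in the combined list. A run of 5 from 2059791 to 2063819 and 1 of 6 from 15807553 to 15811162 have 2 each. Their median scores were 4.40, 4.16 and 6.27, all below the replicate 2 X median of 11.5. Replicate 1 had no such run on X.

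Scores of the same X site in the 2 replicates ranked alike, though less closely than on autosomes. Over 496 X pairs, in which each peak has a single partner, Spearman's rho was 0.79 and Pearson's r 0.79, against 0.83 (IV) to 0.89 (III) and 0.84 (II) to 0.87 (IV) on the autosomes. These describe peaks of 1 pair of libraries and carry no p. They were not matched for score range, and high scores made up a smaller share of X peaks. Strong X peaks had lower replicate 2 scores than strong autosomal peaks. Among pairs with a replicate 1 score of 100 or more, the median replicate 2 score was 60.6 on X (102 pairs) and 80.6 (I) to 85.5 (IV) on the autosomes. Their replicate 1 medians were 125 on X and 133 (V) to 144 (IV), and the median ratio of replicate 2 to replicate 1 score was 0.476 on X and 0.583 (III) to 0.609 (II) on the autosomes. Between 50 and 100 the ratio was 0.362 on X (136 pairs) and 0.401 to 0.443 on the autosomes. Between 20 and 50 X was higher, at 0.385 (104 pairs) against 0.340 to 0.357. Below 20 it was 0.753 (154 pairs) against 0.587 to 0.727. Over all pairs the median ratio was 0.457 on X and 0.492 to 0.542 on the autosomes. As a log2 ratio the median was -1.13 on X and -1.02 to -0.88 on the autosomes. With X and the autosomes weighted to the X score make-up, the log2 ratio was -1.09 on X. That value was within the weighted autosomal range of -1.09 to -0.99. Midpoints of the paired X peaks lay 37.5 bp apart at the median, and 40.5 to 45.0 bp on the autosomes.

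**Figure D5:**
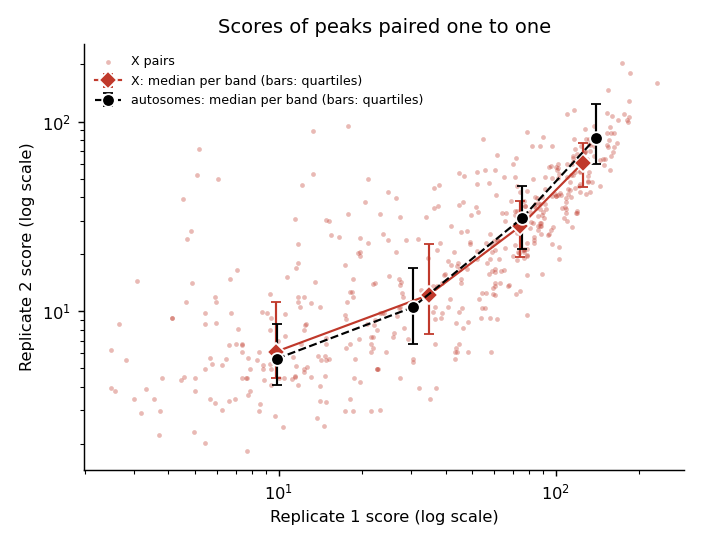
Replicate 2 score against replicate 1 score (both log scale, authors' units) for the 496 X pairs (small red points). Diamonds and circles are medians for X and for the autosomes in 4 bands of replicate 1 score (below 20, 20 to 50, 50 to 100, 100 and more), with bars from the 25th to the 75th percentile of the replicate 2 score. In the highest band the X median is 60.6 and the autosomal median 82.3.

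Among X peaks that both replicates share, the 10 strongest scored 162 to 212 in the combined list and spanned 574 to 3275 bp. The first, from 5952766 to 5953731 in the middle part, is the highest-scoring peak of the whole combined list. It scored 212.12 there, 231.68 in replicate 1 and 159.67 in replicate 2. Its place is less singular in the replicates, at the 99.96 percentile of replicate 1 and the 97.2 percentile of replicate 2. The second, from 7067309 to 7068996, scored 180.51, 185.31 and 181.15 in the same order. It stands at the right edge of a stretch of 132 kb without combined peaks. The third, from 9296373 to 9296946, scored 179.21, 172.56 and 202.68, the highest replicate 2 score on X. Of the 10, only this one scored higher in replicate 2 than in replicate 1.

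Another 3 of the 10 scored close to these in the combined list and lower in replicate 2. The peak from 10419505 to 10420241 scored 178.84, 182.93 and 105.34, in the order combined list, replicate 1, replicate 2. The peak from 9149901 to 9150723 scored 178.44, 180.06 and 102.05. The peak from 15866055 to 15866741, the strongest in the right part, scored 177.36, 181.82 and 99.96, and a stretch of 106 kb without combined peaks begins at its right edge. All 3 lie at the 97th percentile or above in replicate 1 and near the 92nd in replicate 2.

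The other 4 scored 162 to 164 in the combined list. The strongest in the left part, from 4523328 to 4526602, is 3275 bp wide and was called as 2 peaks in replicate 1 (highest score 160.05) and 4 in replicate 2 (159.29). The peak from 3099559 to 3100327 scored 163.91, 175.54 and 109.01. The peak from 6097487 to 6098080 scored 163.25, 162.15 and 92.6, and another peak ends 52 bp before it. The peak from 767635 to 768717 scored 162.36, 167.02 and 101.86. By part of X, 6 of the 10 are in the middle, 3 in the left and 1 in the right part, although the middle has the fewest peaks.

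The widest peaks of X scored above its median of 14.4, but with 1 exception they were not among the strongest. The widest X peak, 6638 bp from 16929364 to 16936001, scored 66.83, and the third widest, 4264 bp from 16936053 to 16940316, follows 51 bp after it with a score of 29.76. They were called as 1 and 2 peaks in replicate 1 and as 2 and 2 in replicate 2. The second widest, 4987 bp from 3111751 to 3116737, scored 37.71, and the fifth, 3228 bp from 11603510 to 11606737, scored 34.28. The fourth is the 3275 bp peak named above. At the other end, the 5 weakest X peaks found in both replicates scored 3.16 to 6.06 in the combined list. The lowest, from 727771 to 728202, lies at the right edge of a stretch of 126 kb without combined peaks and scored 3.32 in replicate 1 and 3.88 in replicate 2.

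The strongest X peak of replicate 1 alone, from 12848171 to 12848618, scored 29.49 in the combined list and 28.1 in replicate 1, and closes the stretch of 176 kb described above. The strongest of replicate 2 alone, from 168588 to 168919, scored 17.84 in the combined list and 50.84 in replicate 2. The strongest in neither, from 10667902 to 10668085, scored 15.3.

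Most X peaks had no close company. Of 751 clusters formed by joining peaks at most 1 kb apart, 600 (79.9%) held a single peak, against 69.8% (III) to 75.5% (V) of autosomal clusters. A further 110 held 2 peaks and 27 held 3. The fullest held 9 weak peaks from 8017459 to 8022345, none scoring above 11.3, of which 2 were in both replicates. The next held 6 peaks from 4141219 to 4148047, with scores of 2.84 to 35.1 and 3 peaks in both replicates. Clusters of 5 lay from 166309 to 169922 (highest score 43.3, 3 in both replicates) and from 10677548 to 10680600 (highest score 30.9, 1 in both replicates). The first along X of the 10 clusters of 4, from 3075395 to 3077509, had a highest score of 18.9. None of these 5 clusters held a peak scoring 50 or more.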

How the data were processed

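NURF-1 ChIP-seq peaks of wild-type C. elegans L3 larvae were analysed from 3 deposited lists (replicate 1, replicate 2 and a combined list). Per the file headers, peaks were called with MACS on WormBase WS220. Per the submitters' processing notes, reads were aligned with BWA to ce10. Not given in the sources used here are versions, thresholds, any use of input and how the lists were combined. The authors deposited 1 score per peak, with no stated scale.

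A chromosome's length was the last peak end in any list. Overlap meant at least 1 bp. The left, middle and right parts of a chromosome were assigned by peak midpoint. Peak score make-up was matched over 10 equal score classes of the combined list. Intervals are 95% Wilson for shares and 95% exact Poisson for densities; they cover counting error only and treat peaks as independent. The members and comparisons were chosen with earlier results of these data known. Regions named are the 10 highest-scoring and 5 lowest-scoring X peaks in both replicates, the strongest of each part and overlap class, the 5 widest, the 5 longest stretches, the 5 fullest clusters and the extreme bins; other regions were chosen after their values were seen. Gene names and sequence were not used, since the gene table at hand is of the WBcel235 build. Functions were tested on simulated data. Alternatives tried were each replicate list, shared peaks, score limits, overlap rules, merging, chromosome ends and other divisions. Tests used scipy 1.17.1, tables pandas 2.3.3 and numpy 2.4.6, and plots matplotlib 3.10.9, under Python 3.11.15.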

Additional observations from a re-analysis of the deposited data

How the results depend on the processing

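For the 12 results, 85 values under other settings were computed; 76 of them left the direction as it was or moved by less than the interval. The lower density, the longer gaps, their smaller coefficient of variation, the larger share in peak-free stretches and the lower middle-to-outer ratio on X kept their direction relative to the autosomes under every alternative run, although no p could cross the threshold. Of these, the density, the gap length and the peak-free share are not independent results, since fewer peaks leave longer gaps. The density ratio ran from 0.252 (top 10% by score) to 0.523 (peaks merged) and the gap ratio from 2.29 (merged) to 5 (top 10%). The differences near 0 changed sign. Median score turned to -9.76 with the top 10% and to -2.92 with means. Median width turned to 22.2 bp without replicate 2 (-18.2 bp without replicate 1). The share in both replicates turned to -31.7 points when the top 10% of each list was used, which removes lower-scoring partners by construction. With a replicate left out, the measure becomes the share found in the remaining replicate. Its difference was -5.11 points without replicate 2 and 3.56 without replicate 1. With the top 10%, the left, middle and right parts of X held 32.1%, 37.5% and 30.4% of 56 peaks, against 37.2%, 28.7% and 34.2% of all X peaks. The middle-to-outer log2 ratio was then 0.26 on X, against an autosomal mean of 0.65. Leaving out a replicate moved the 5 former results within 0.423 to 0.480, 2.75 to 3.33, -0.281 to -0.223, 23.8 to 26.2 points and -0.583 to -0.356, and the parts of X within 37.1% to 39.3%, 27.1% to 28% and 33.5% to 34.9%. The runs of replicate 2 were also removed, from X alone or from every chromosome, alternatives added after seeing the data. This changed no direction among the main results for which it was done. The rank correlation fell to 0.72 with the top 50%. Except where stated, the cause was not tested. No paired analysis was possible because the inputs numbered like the ChIP replicates have no values here. Without reads, a peak missing from a list cannot be told apart from one below its threshold.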

Other observations

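X peaks were more often called as a single piece. Of the 523 combined X peaks found in both replicates, 24 (4.59%) were split into several peaks in replicate 1 and 31 (5.93%) in replicate 2. On the autosomes the shares were 6.31% (I) to 6.98% (II) in replicate 1 and 11.3% (V) to 12.8% (I) in replicate 2. The shared X peaks were also narrower, with a median of 646 bp against 700 to 802 bp, and whether width sets the number of pieces was not tested.

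Peak numbers per Mb of X followed the same profile in both replicates. Over the 17 full bins of 1 Mb, Spearman's rho between them was 0.86 and Pearson's r 0.87, a description of bins that share their libraries. Width and score were less closely related on X than on any autosome, with a rho of 0.77 in the combined list (autosomes 0.78 to 0.81), 0.76 in replicate 1 (0.79 to 0.81) and 0.67 in replicate 2 (0.77 to 0.78).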
